A study of Mus musculus with 9 samples.

Results

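The 57 mitosis and spindle genes described here were picked by symbol from a table of 54532 mouse genes, from a list of genes of chromosome condensation, the spindle, the spindle checkpoint and cell cleavage. They were profiled by RNA sequencing of right ventricular myocardium in 9 libraries. All mice were wild-type C57BL/6, with postnatal day 7 given as their stage. The 3 CsA libraries came from mice given a fistula operation and cyclosporin A, the 3 VO libraries (VO, volume overload) from mice given the fistula operation alone, and the 3 Sham libraries from sham-operated mice. Per the labels' protocols the animals of all groups were suckling pups kept with their mothers. Cyclosporin A is an inhibitor of the phosphatase calcineurin, and a fistula returns extra blood to the heart. The sources used here give no drug dose, no fistula site and no age at harvest. Nor do they state that 1 library stands for 1 mouse. A p-value here thus covers the spread among these libraries, an unknown part of which may be technical.

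A cell enters mitosis when the kinase Cdk1 joins cyclins of the A and B type; condensin then folds the chromosomes, kinesins and assembly factors build the spindle, and the spindle checkpoint holds anaphase until each chromosome is attached. The anaphase-promoting complex next marks cyclin B and securin for destruction, and the proteins of the spindle midzone guide cleavage. In the mouse heart most cardiomyocytes leave the cell cycle in the days after birth, often after a last round of DNA synthesis without cleavage, while endothelial cells, fibroblasts and macrophages can go on dividing. In bulk tissue RNA, fewer dividing cells and less of each transcript per dividing cell cannot be told apart.

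Mitotic genes are a textbook case of genes switched together from short promoters. The DREAM complex represses them in resting cells and B-MYB with MuvB activates them in dividing ones, both through the cell cycle genes homology region (CHR), while NF-Y binds CCAAT boxes nearby. Promoter windows from RefSeq (GRCm38.p6; 250 bases before to 50 after a transcription start) were found for 46 of the 57 genes, in 51 windows. Aurkb, Ccna2, Cdc25c, Cdca2, Dlgap5, Foxm1, Incenp, Kif20a, Smc4, Spc24 and Tpx2 had no entry. Letters of a CHR, TTTGAA or TTCGAA on either strand, lay in 38 of the 51 windows (74.5%), against 13.7% of the 12264 windows of all tested genes and 19.2% of the 32851 windows in the whole table. The letters CCAAT on either strand occurred at least once in 76.5% of the members' windows, against 37.5% for all tested genes. A CHR match with 2 or more CCAAT matches was found in 23 windows (45.1%), against 2.17%. In 1 of the members' windows a CHR match and a CCAAT match overlapped.

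Positions were compared as well. A CHR match began between 50 bases before and 50 bases after the start in 33 of 51 windows (64.7%), against 3.55% of the windows of all tested genes. The 6 sequences given here run from 250 bases before to 30 bases after the start, 5′ to 3′ on the gene's strand, with CHR and CCAAT letters of either strand in capitals. They were chosen because the results turn on these genes and because they span the range of layouts. Top2a, with 4 CHR and 6 CCAAT matches, is shown beside Ccnb2, Cdk1 and Cdc20, which had a CHR match within 20 bases of the start and 2 or 3 CCAAT matches. The Ncapg window held 1 CHR and 1 CCAAT match, and the Pttg1 window held neither. That Pttg1 window lies wholly inside the gene as the deposited coordinates give it (chromosome 11, 43420250 to 43426251, minus strand). The bases before that 5′ end were not searched, so a lack of matches in the promoter there is not shown.
Top2a (chr11:99024160-99024439, minus strand): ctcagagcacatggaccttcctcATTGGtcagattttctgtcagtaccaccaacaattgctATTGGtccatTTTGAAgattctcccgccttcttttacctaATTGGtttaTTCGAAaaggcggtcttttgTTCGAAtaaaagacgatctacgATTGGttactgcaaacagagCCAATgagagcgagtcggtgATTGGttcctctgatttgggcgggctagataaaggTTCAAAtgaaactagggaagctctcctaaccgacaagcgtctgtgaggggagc
Ccnb2 (chr9:70421525-70421804, minus strand): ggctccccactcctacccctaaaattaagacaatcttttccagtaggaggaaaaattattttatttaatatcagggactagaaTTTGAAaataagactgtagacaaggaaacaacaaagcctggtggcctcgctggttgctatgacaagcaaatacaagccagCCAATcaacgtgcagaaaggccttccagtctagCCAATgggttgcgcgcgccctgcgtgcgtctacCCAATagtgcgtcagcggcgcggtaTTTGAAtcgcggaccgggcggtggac
Cdk1 (chr10:69352883-69353162, minus strand): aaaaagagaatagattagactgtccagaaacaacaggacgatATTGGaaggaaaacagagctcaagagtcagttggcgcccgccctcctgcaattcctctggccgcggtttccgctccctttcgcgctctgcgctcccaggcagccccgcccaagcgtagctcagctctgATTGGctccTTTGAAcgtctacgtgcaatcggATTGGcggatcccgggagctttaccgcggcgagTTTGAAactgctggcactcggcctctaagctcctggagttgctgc
Cdc20 (chr4:118437314-118437593, minus strand): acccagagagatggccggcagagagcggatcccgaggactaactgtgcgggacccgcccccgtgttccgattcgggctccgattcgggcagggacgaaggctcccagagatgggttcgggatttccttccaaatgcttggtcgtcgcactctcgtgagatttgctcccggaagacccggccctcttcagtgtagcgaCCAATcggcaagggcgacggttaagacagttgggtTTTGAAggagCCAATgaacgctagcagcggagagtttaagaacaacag
Ncapg (chr5:45669675-45669954, plus strand): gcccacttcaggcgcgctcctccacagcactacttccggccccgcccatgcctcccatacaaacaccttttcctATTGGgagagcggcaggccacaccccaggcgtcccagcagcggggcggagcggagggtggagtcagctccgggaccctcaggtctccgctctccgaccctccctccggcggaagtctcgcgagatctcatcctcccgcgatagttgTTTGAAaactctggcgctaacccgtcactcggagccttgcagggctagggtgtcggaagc
Pttg1 (chr11:43425952-43426231, minus strand): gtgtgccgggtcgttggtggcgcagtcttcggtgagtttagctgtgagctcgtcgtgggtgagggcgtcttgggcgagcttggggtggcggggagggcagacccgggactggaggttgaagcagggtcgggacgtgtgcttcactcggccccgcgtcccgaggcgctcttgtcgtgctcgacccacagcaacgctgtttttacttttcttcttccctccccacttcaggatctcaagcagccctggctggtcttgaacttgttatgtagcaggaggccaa

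**Figure D1:**
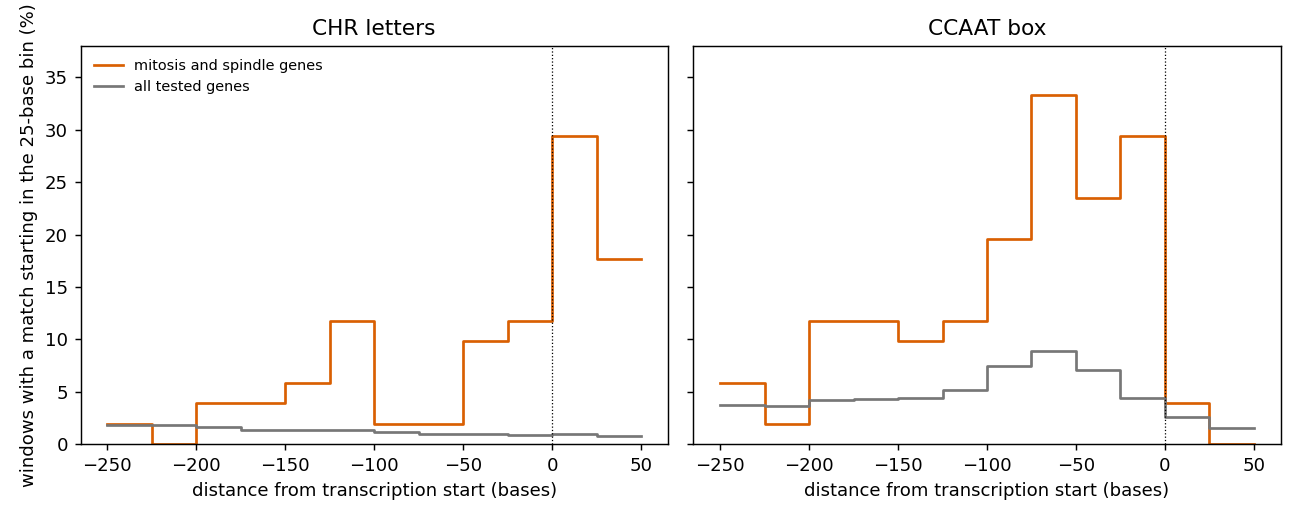
Share of promoter windows (%) in which a match begins in each bin of 25 bases, by distance from the transcription start, for the 51 windows of mitosis and spindle genes (orange) and the 12264 windows of all tested genes (grey). CHR letters peaked just after the start, in 29.4% of the members' windows, and CCAAT letters between 75 and 50 bases before it, in 33.3%.

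A letter match is a description of the window and does not show that a factor binds there. Bases outside the windows were not searched, and some windows lie inside the gene as deposited. The 35 genes with CHR letters had a median ratio of the highest to the lowest of the 9 libraries of 6.88, and the 11 matched genes without them, Birc5, Ccnb1, Cenpe, Cenpk, Knstrn, Mad2l1, Mybl2, Ncaph, Nuf2, Nusap1 and Pttg1, had 6.25. Genes of both kinds thus varied widely between libraries, and the lowest ratio, 1.88 for the centromeric histone Cenpa, belonged to a gene with CHR letters.

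The libraries held 12046288 to 15986747 fragments assigned to genes, and several stood apart. VO 3 had 11.01% of its fragments on mitochondrially encoded genes, against 22.18% to 26.34% in the other 8. It also had the fewest genes above 0, 17003 against 19619 to 20479 in the other 8, though it held the most fragments. Sham 1, Sham 3 and CsA 3 held 235, 269.7 and 68.3 FPKM of the atrial myosin light chain Myl7, which lay between 0.959 and 13.2 FPKM elsewhere. Sham 2 alone had Y-linked Ddx3y, at 18.6 FPKM, with Xist at 0.00401 FPKM, so sex by these transcripts was not balanced. Ventricular cardiomyocyte markers summed to 13182 to 21937 FPKM in every library, with 15 of 15 listed genes above 0 and the ventricular light chain Myl2 at 510.7 to 1506 FPKM.

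All 57 genes were read in every library, with 6 to 1864 fragments per value (median 157). FPKM scales fragments by gene length and library size. Levels of different genes can thus be set side by side only as far as the deposited gene lengths hold. Over the 9 libraries the mean level ran from 0.551 FPKM for the kinetochore gene Cenpk to 12.7 FPKM for the securin gene Pttg1, with a median of 2.58 FPKM. The median gene averaged 2.74 FPKM in CsA, 3.23 FPKM in VO and 1.82 FPKM in Sham. Condensin subunit Smc4 had the highest VO mean, 14.3 FPKM.

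The members moved together from library to library, also within a group. Their summed fragments, as CPM (counts scaled to the library total), were 991.4, 411.9 and 1571 CPM in CsA 1 to 3, 1269, 1737 and 1021 CPM in VO 1 to 3, with Sham 1 to 3 at 628.7, 991.4 and 375.7 CPM. Counting error was small beside these gaps: the 95% Poisson interval was 401 to 423 CPM in CsA 2 and 1550 to 1593 in CsA 3. Every VO library lay above every Sham library in this sum, but VO 3 and Sham 2 were close, and other summaries turned them round. Summed FPKM without Pttg1 and Bub3 was 182.8 in VO 3 and 185.2 in Sham 2, and the median FPKM of the members was 2.56 in VO 3 and 2.75 in Sham 2. The CsA libraries reached from the low end of Sham to near the top of VO. Group means were 991.6 ± 580 CPM in CsA, 1342 ± 364 in VO and 665.3 ± 310 in Sham (SD, n = 3 each). The highest library exceeded the lowest 3.82-fold within CsA, 1.70-fold within VO and 2.64-fold within Sham.

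**Figure D2:**
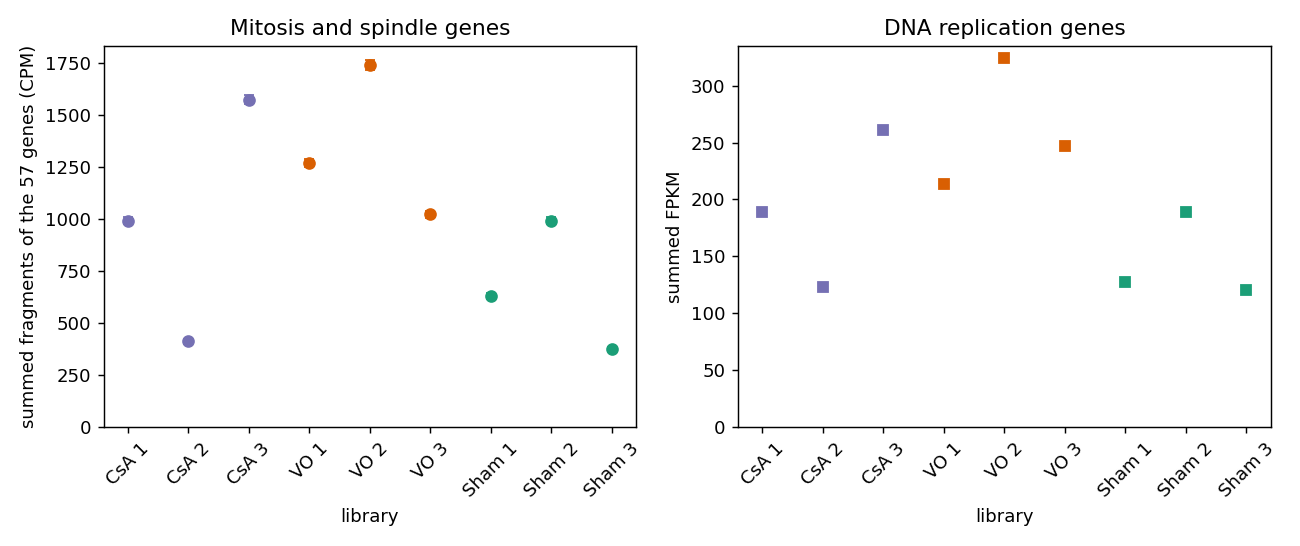
Left, fragments of the 57 mitosis and spindle genes by library, in CPM, with 95% Poisson intervals mostly smaller than the points; right, summed FPKM of the DNA replication genes. The 57 genes stood at 411.9 CPM in CsA 2 and 1571 in CsA 3, and the replication sum ran in the same order within CsA and within Sham.

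Almost the whole set kept 1 order within a group. CsA 3 was the highest CsA library in 56 of 57 genes, against 30.4% of all tested genes, and CsA 2 the lowest in 55, against 37.4%. The exceptions were Pttg1, highest in CsA 2, and Pttg1 and Bub3, lowest in CsA 1. Sham 2 was the highest Sham library in 52 genes and Sham 3 the lowest in 53, against 38.8% and 34.1% of all tested genes. Within VO the order was looser, with VO 2 highest in 45 genes and VO 3 lowest in 36, against 24.8% and 40.8%. Sham 2, the highest Sham library, was the 1 with Ddx3y, and Sham 1 and Sham 3 were the Sham libraries high in Myl7. Whether either property has a part in the members' levels was not tested.

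The spread inside a group was wide for these genes. Within CsA the highest library exceeded the lowest 5.02-fold for the median member, against 1.33-fold for the median of 12977 tested genes above 0 in every library. The same ratio was 2.04 against 1.69 within VO and 2.93 against 1.28 within Sham. Over all 9 libraries it was 6.71 for the median member and 2.21 for the median gene. Hmmr, a spindle protein that binds hyaluronan, reached 12.2, while Cenpa (1.88), the checkpoint protein Bub3 (1.92), condensin subunit Ncapd2 (2.06), Cdc25b (2.32) and Pttg1 (2.44) varied least.

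**Figure D3:**
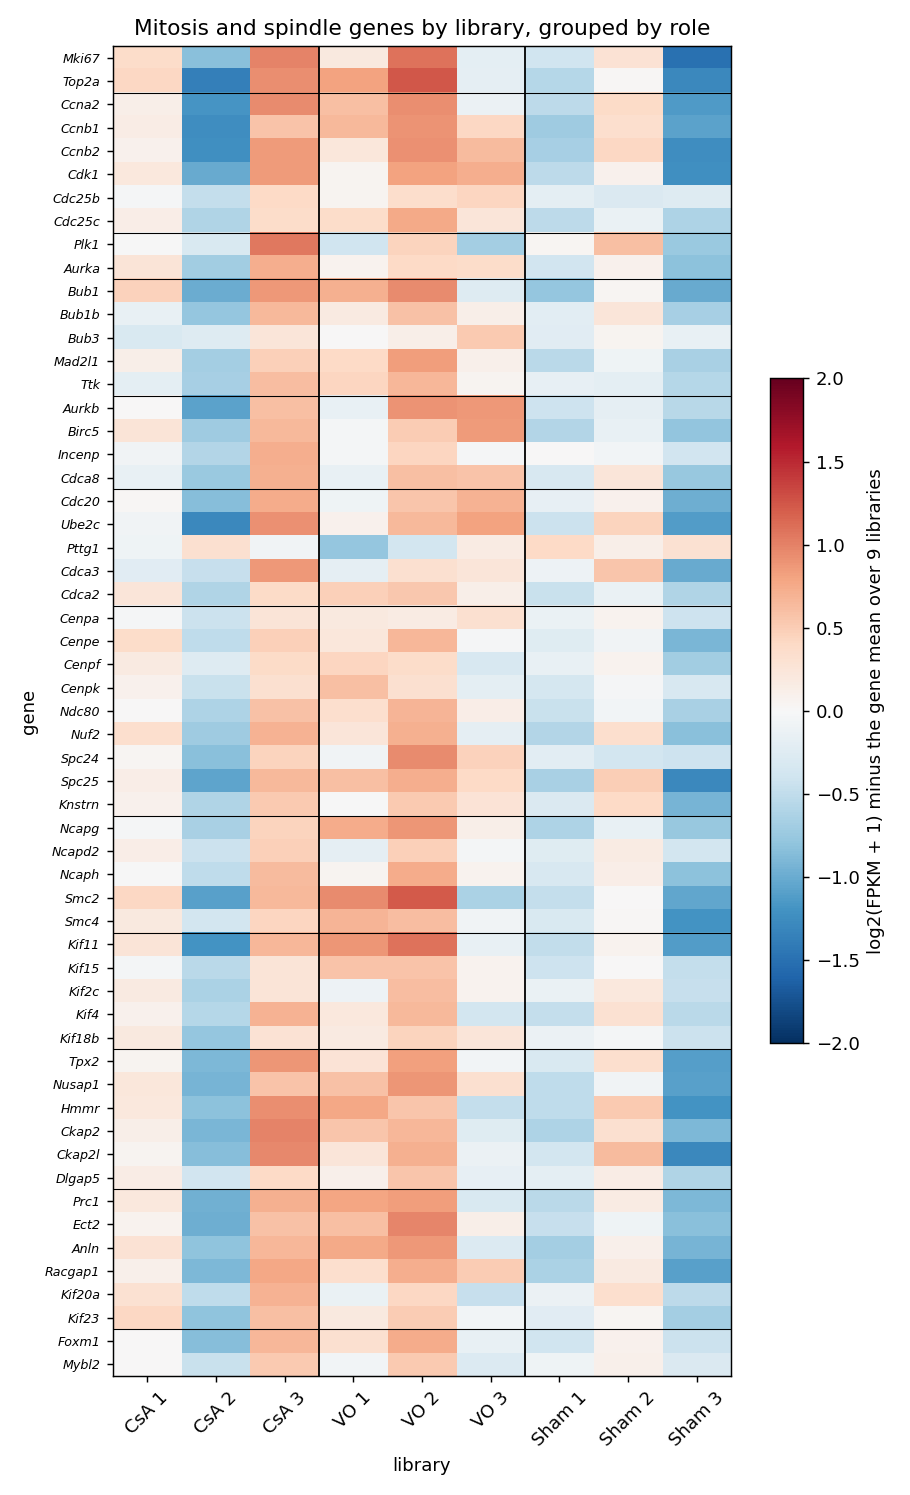
Level of each of the 57 genes by library, as log2(FPKM + 1) minus the gene's mean over 9 libraries (colour), with genes grouped by role and libraries by group. CsA 2 and Sham 3 were below the gene mean for nearly all genes, VO 2 and CsA 3 above it, and Pttg1 runs against the rest.

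The comparison of VO with Sham asks what differs in the right ventricle after the fistula operation. Fitted values were higher in VO for 55 of the 57 mitosis and spindle genes, but none passed the test. In limma on log2(FPKM + 1), 0 of 57 members had an adjusted p of 0.05 or less, where 642 of 13477 tested genes did (4.76%; 2.04% higher and 2.72% lower). At an unadjusted p under 0.05 there were 17 members higher (29.8%), against 14.0% of all tested genes, and 1 lower, Pttg1 (1.75%), against 15.3%. Over all tested genes 50.4% had a log2 fold change above 0 and 49.6% below 0. The median member had a log2 fold change of 0.70 and the median gene 0.003, and on FPKM means the members' median ratio was 1.94, from 0.661 for Pttg1 to 4.15 for the condensin subunit Ncapg. In 25 members VO exceeded Sham at least 2-fold on these means, a count for which no share over all tested genes was computed. Standard errors ran from 0.194 to 0.588 on the log2 scale.

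Libraries of both groups were fully apart in 18 members, all higher in VO (31.6%, against 16.2% of all tested genes), and in 0 members lower in VO (17.0% of all tested genes). These were Ccnb1, Cdc25b, Cdc25c, Mad2l1, Ttk, Aurkb, Birc5, Cdca2, Cenpa, Cenpe, Ndc80, Spc24, Ncapg, Kif15, Kif18b, Nusap1, Ect2 and Racgap1. Among the 6 libraries, Sham 2 and VO 3 set most of the overlap. Without Sham 2, 49 members were fully higher in VO (22.1% of all tested genes), and without VO 3, 33 were (27.6%). In each of these settings 1 member was fully lower in VO, against 23.5% and 27.4% of all tested genes. Without CsA 2, which only adds to the estimate of spread, limma called 4 members higher in VO (Cdc25c, Cdca2, Ncapg and Nusap1; 7.02%), where 2.39% of all tested genes were called higher. Without VO 3 it called Ncapg and Kif15 higher and Pttg1 lower, 5.26% of the members against 15.1% of all tested genes. The median was 0.46 without Sham 3, and 0.20 without the 3 libraries high in Myl7, with 0 members called. The count over all genes rested on single libraries too: it was 0 without CsA 1, CsA 3, VO 1 or Sham 3, 1 without Sham 1, 69 without Sham 2 and 2032 without VO 3. After a correction for GC content 0 genes were called and the members' median was 0.59.

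**Figure D4:**
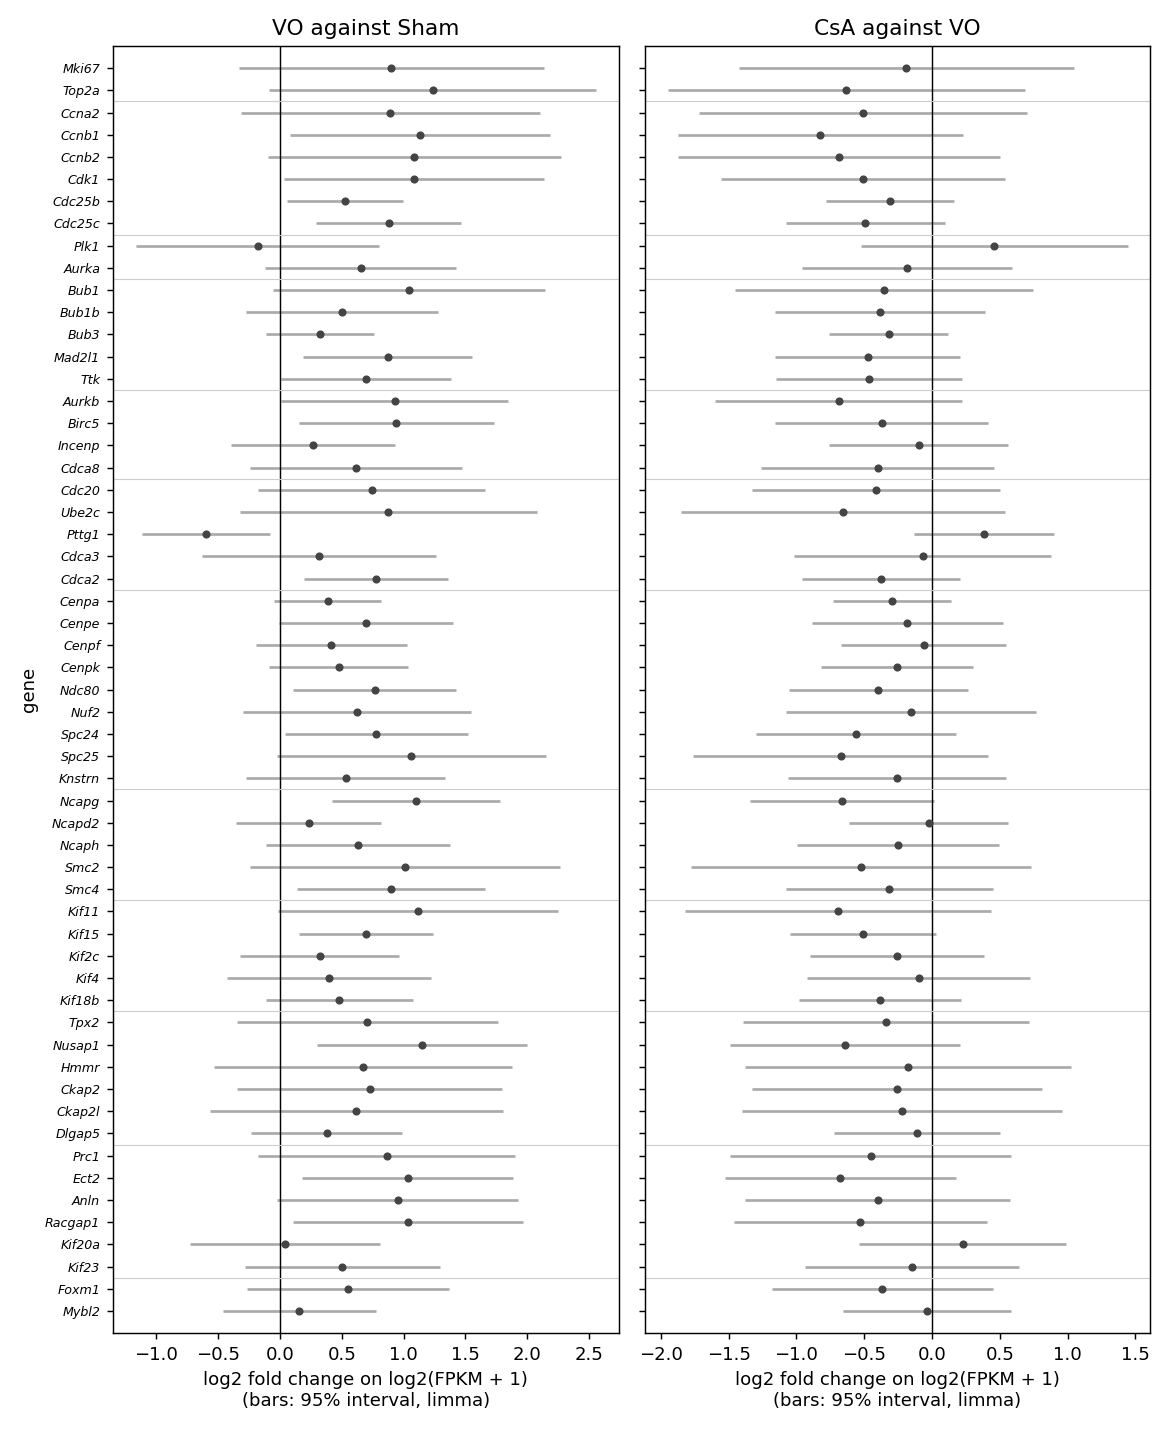
Log2 fold change of each of the 57 genes with its 95% interval (limma, log2(FPKM + 1)), VO against Sham on the left and CsA against VO on the right, genes grouped by role. On the left 55 points lie above 0 and 17 intervals exclude 0 on the high side; on the right 54 points lie below 0 and every interval spans 0.

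Neither of the transcription factors in the set had its VO libraries apart from its Sham libraries. Foxm1 (ENSMUSG00000001517, chromosome 6, 128362967 to 128376146), a forkhead factor that activates late cell cycle genes, had 1.92, 0.604 and 3.61 FPKM in CsA 1 to 3, 2.62, 3.88 and 1.63 FPKM in VO 1 to 3 and 1.22, 2.07 and 1.17 FPKM in Sham 1 to 3. VO 1 and VO 2 lay above all Sham libraries, VO 3 lay among them, and the log2 fold change was 0.55 ± 0.364 (SE; limma, adjusted p = 0.338). Mybl2 (ENSMUSG00000017861, chromosome 2, 163054687 to 163084688), which encodes B-MYB, had 0.561, 0.140 and 1.23 FPKM in CsA 1 to 3, 0.488, 1.24 and 0.288 FPKM in VO 1 to 3 and 0.459, 0.668 and 0.267 FPKM in Sham 1 to 3. Its groups overlapped throughout and its log2 fold change was 0.16 ± 0.277 (adjusted p = 0.739); CsA 2 held 8 fragments of it.

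Cyclins, Cdk1 and its activating phosphatases had higher VO values in 6 of 6 genes, with log2 fold changes of 0.53 to 1.13. Ccnb1 (ENSMUSG00000041431, chromosome 13, 100778650 to 100786570), cyclin B1, the main partner of Cdk1 at mitotic entry, had 4.33, 1.02 and 6.14 FPKM in CsA 1 to 3, 6.47, 7.94 and 5.38 FPKM in VO 1 to 3 and 1.93, 5.05 and 1.28 FPKM in Sham 1 to 3. Each VO library exceeded each Sham library, VO averaged 6.60 ± 1.29 FPKM and Sham 2.75 ± 2.01 FPKM (SD, n = 3 each), and the log2 fold change was 1.13 ± 0.470 (adjusted p = 0.146 by limma). Cdk1 (ENSMUSG00000019942, chromosome 10, 69335146 to 69352938), the kinase itself, had 4.13, 1.21 and 7.01 FPKM in CsA 1 to 3, 3.61, 6.77 and 6.29 FPKM in VO 1 to 3 and 2.08, 3.72 and 0.891 FPKM in Sham 1 to 3. Here VO 1 lay just under Sham 2, and the log2 fold change was 1.08 ± 0.468 (adjusted p = 0.16). Ccna2 (ENSMUSG00000027715, chromosome 3, 36564865 to 36572150), cyclin A2, which acts from DNA replication to early mitosis, had 6.20, 1.92 and 11.8 FPKM in CsA 1 to 3, 9.07, 11.6 and 5.09 FPKM in VO 1 to 3 and 3.59, 7.63 and 2.04 FPKM in Sham 1 to 3. VO 3 lay below Sham 2, and the log2 fold change was 0.89 ± 0.540 (adjusted p = 0.297). Cdc25c (ENSMUSG00000044201, chromosome 18, 34732997 to 34751533), a phosphatase that activates Cdk1, was scarce at 1.08, 0.250 and 1.45 FPKM in CsA 1 to 3, 1.45, 2.20 and 1.26 FPKM in VO 1 to 3 and 0.318, 0.741 and 0.239 FPKM in Sham 1 to 3. The lowest VO library exceeded the highest Sham library, and the log2 fold change was 0.88 ± 0.262 (adjusted p = 0.0704). Those values rest on 6 to 55 fragments. Cyclin B2, Ccnb2, had a higher mean FPKM than cyclin B1 in each group, at 8.72 ± 6.10 in CsA, 12.6 ± 3.13 in VO and 6.05 ± 4.23 in Sham. That order rests on the deposited gene lengths, 1531 bases for Ccnb2 and 4217 for Ccnb1. In fragments Ccnb2 exceeded Ccnb1 in no library, with 229, 309 and 335 against 435, 432 and 391 in VO 1 to 3. Cdc25b ranged over the 9 libraries from 1.95 to 4.53 FPKM.

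The proliferation markers of this set, both proteins of chromosomes, overlapped between groups. Mki67 (ENSMUSG00000031004, chromosome 7, 135689784 to 135716361), whose product coats mitotic chromosomes, had 7.16, 2.53 and 11.7 FPKM in CsA 1 to 3, 6.28, 12.4 and 4.55 FPKM in VO 1 to 3 and 3.79, 6.70 and 1.25 FPKM in Sham 1 to 3. Top2a (ENSMUSG00000020914, chromosome 11, 98992943 to 99024189), the topoisomerase that untangles sister chromatids, had 8.54, 1.80 and 12.6 FPKM in CsA 1 to 3, 11.6, 16.0 and 5.32 FPKM in VO 1 to 3 and 3.83, 6.34 and 1.94 FPKM in Sham 1 to 3. In both genes VO 3 was the lowest VO library and lay below Sham 2. On log2(FPKM + 1), which understates the change of low genes, Top2a had the highest log2 fold change of the 57, 1.23 ± 0.588 (adjusted p = 0.195 by limma). It also had the largest standard error, and Mki67 had 0.90 ± 0.551 (adjusted p = 0.302). As a ratio of FPKM means Top2a was not the highest, at 2.72 against 4.15 for Ncapg and 3.78 for Cdc25c. The promoter window of Top2a held the most matches of the 6 shown.

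Neither Aurka nor Plk1, the genes grouped here as mitotic kinases, passed the test or had its VO and Sham libraries apart. Of the kinases placed in other roles, Aurkb and Ttk had these libraries apart, and Cdk1 and Bub1 did not. Aurka (ENSMUSG00000027496, chromosome 2, 172356190 to 172370535), aurora kinase A of the spindle poles, had 2.88, 0.990 and 4.33 FPKM in CsA 1 to 3, 2.38, 3.28 and 3.19 FPKM in VO 1 to 3 and 1.49, 2.41 and 0.823 FPKM in Sham 1 to 3. VO 1 lay just under Sham 2, and the log2 fold change was 0.66 ± 0.345 (adjusted p = 0.235 by limma). Plk1 (ENSMUSG00000030867, chromosome 7, 122159439 to 122169873), polo-like kinase 1, which acts from mitotic entry to cleavage, had 1.60, 1.10 and 4.40 FPKM in CsA 1 to 3, 0.970, 2.54 and 0.633 FPKM in VO 1 to 3 and 1.68, 2.94 and 0.561 FPKM in Sham 1 to 3. CsA 3 was highest and no group was apart from another: the log2 fold change was -0.18 ± 0.439 in VO against Sham (adjusted p = 0.821). Plk1 and Pttg1 were the members with a value below 0 in this comparison. The Plk1 value was 0.05 without VO 3, 0.14 without Sham 2 and 0.09 after the GC correction.

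Condensin, the ring complex that compacts chromosomes, held the smallest p of the set. Ncapg (ENSMUSG00000015880, chromosome 5, 45669919 to 45700546), a subunit of condensin I, had 1.17, 0.412 and 2.005 FPKM in CsA 1 to 3, 2.72, 3.09 and 1.41 FPKM in VO 1 to 3 and 0.437, 0.997 and 0.306 FPKM in Sham 1 to 3. VO averaged 2.41 ± 0.883 FPKM and Sham 0.580 ± 0.367 FPKM, all VO libraries exceeded all Sham libraries, and the log2 fold change was 1.10 ± 0.303 (adjusted p = 0.0602 by limma). Of its exonic bases 13.4% are shared with Lcorl on the other strand. Whether reads from those shared bases were kept apart is unknown, as the strandedness of the counting is not given. The other 4 subunits, Ncapd2, Ncaph, Smc2 and Smc4, had log2 fold changes of 0.23 to 1.01, and their groups overlapped. Smc2, the core ATPase shared by both condensins, had the largest drop of any member in VO 3, at 2.27 FPKM against 8.74 and 10.9 FPKM in VO 1 and VO 2.

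Kinetochore and centromere genes, which tie chromosomes to microtubules, had higher VO values in 9 of 9, at log2 fold changes of 0.39 to 1.06. Ndc80 (ENSMUSG00000024056, chromosome 17, 71496100 to 71526857), the microtubule-binding core of the outer kinetochore, had 1.06, 0.336 and 2.05 FPKM in CsA 1 to 3, 1.58, 2.28 and 1.25 FPKM in VO 1 to 3 and 0.496, 0.975 and 0.309 FPKM in Sham 1 to 3. Spc24 (ENSMUSG00000074476, chromosome 9, 21755442 to 21760303), of the same complex, had 1.53, 0.377 and 2.34 FPKM in CsA 1 to 3, 1.34, 3.71 and 2.39 FPKM in VO 1 to 3 and 1.12, 0.894 and 0.840 FPKM in Sham 1 to 3. In both the VO libraries lay above the Sham libraries, with log2 fold changes of 0.77 ± 0.293 for Ndc80 (adjusted p = 0.121 by limma) and 0.78 ± 0.330 for Spc24 (adjusted p = 0.153). Nuf2 and Spc25 complete that complex and overlapped between groups, at log2 fold changes of 0.62 and 1.06. Cenpa and the kinesin Cenpe also had all VO libraries above all Sham libraries, whereas Cenpf, Cenpk and Knstrn did not.

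Spindle checkpoint genes had higher VO values in 5 of 5. Mad2l1 (ENSMUSG00000029910, chromosome 6, 66535390 to 66547220), which encodes the inhibitor MAD2, had 2.08, 0.771 and 2.94 FPKM in CsA 1 to 3, 2.74, 4.07 and 2.03 FPKM in VO 1 to 3 and 0.940, 1.66 and 0.809 FPKM in Sham 1 to 3. The VO libraries lay above the Sham libraries, at a log2 fold change of 0.87 ± 0.304 (adjusted p = 0.101 by limma). Bub3 (ENSMUSG00000066979, chromosome 7, 131560222 to 131571895), which brings BUB1 to kinetochores, had 5.13, 5.31 and 7.94 FPKM in CsA 1 to 3, 6.57, 7.20 and 9.84 FPKM in VO 1 to 3 and 5.42, 6.79 and 5.80 FPKM in Sham 1 to 3. It was among the steadiest members and its log2 fold change was 0.33 ± 0.195 (adjusted p = 0.29). The checkpoint kinases Bub1 and Ttk, and Bub1b, which encodes BUBR1, had log2 fold changes of 0.50 to 1.04, and of these 3 only Ttk had its groups apart.

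The chromosomal passenger complex, which corrects wrong attachments, had higher VO values in 4 of 4 genes. Aurkb (ENSMUSG00000020897, chromosome 11, 69045647 to 69051664), its kinase aurora B, had 2.16, 0.494 and 3.77 FPKM in CsA 1 to 3, 1.83, 4.82 and 4.75 FPKM in VO 1 to 3 and 1.35, 1.76 and 1.13 FPKM in Sham 1 to 3. VO 1 was only just above Sham 2, VO 2 and VO 3 were far above it, and the log2 fold change was 0.93 ± 0.408 (adjusted p = 0.166 by limma). Birc5 (ENSMUSG00000017716, chromosome 11, 117849251 to 117855743), survivin, had 3.10, 1.12 and 4.43 FPKM in CsA 1 to 3, 2.34, 3.90 and 5.23 FPKM in VO 1 to 3 and 1.31, 2.11 and 0.998 FPKM in Sham 1 to 3. All VO libraries exceeded all Sham libraries, at a log2 fold change of 0.94 ± 0.351 (adjusted p = 0.115). Incenp (0.27) and Cdca8 (0.62), the scaffold and borealin, overlapped between groups. For Birc5, whose promoter window held no match, VO 3 was the highest library of all 9.

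Spindle motors had higher VO values in 5 of 5 genes. Kif15 (ENSMUSG00000036768, chromosome 9, 122951046 to 123018733), a plus-end kinesin that helps keep spindles bipolar, had 0.707, 0.213 and 1.11 FPKM in CsA 1 to 3, 1.61, 1.61 and 0.842 FPKM in VO 1 to 3 and 0.323, 0.763 and 0.266 FPKM in Sham 1 to 3. All VO libraries lay above all Sham libraries, at a log2 fold change of 0.70 ± 0.240 (adjusted p = 0.0989 by limma). Kif18b was apart too, while Kif11, Kif2c and Kif4 overlapped, and these 4 had log2 fold changes of 0.32 to 1.12. Kif4 shares 15.1% of its exonic bases with Pdzd11 on the other strand.

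Among spindle assembly factors, 6 of 6 had higher VO values. Nusap1 (ENSMUSG00000027306, chromosome 2, 119618298 to 119651244), a microtubule bundling protein, had 4.77, 1.59 and 6.29 FPKM in CsA 1 to 3, 6.43, 8.06 and 5.16 FPKM in VO 1 to 3 and 2.48, 3.68 and 1.33 FPKM in Sham 1 to 3. The groups did not overlap, VO averaged 6.55 ± 1.45 FPKM and Sham 2.50 ± 1.18 FPKM, and the log2 fold change was 1.15 ± 0.378 (adjusted p = 0.0884 by limma). Tpx2, Hmmr, Ckap2, Ckap2l and Dlgap5 had log2 fold changes of 0.38 to 0.73 with overlapping groups.

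Genes of the anaphase-promoting complex and anaphase control split. Cdca2 (ENSMUSG00000048922, chromosome 14, 67676331 to 67715841), which recruits a phosphatase to anaphase chromatin, had 1.23, 0.255 and 1.48 FPKM in CsA 1 to 3, 1.65, 1.76 and 1.07 FPKM in VO 1 to 3 and 0.396, 0.730 and 0.243 FPKM in Sham 1 to 3. VO lay above Sham in every library, at a log2 fold change of 0.78 ± 0.261 (adjusted p = 0.0933 by limma). Pttg1 (ENSMUSG00000020415, chromosome 11, 43420250 to 43426251), securin, the inhibitor of separase, had 11.6, 15.6 and 11.7 FPKM in CsA 1 to 3, 6.78, 9.30 and 13.8 FPKM in VO 1 to 3 and 16.5, 13.4 and 15.4 FPKM in Sham 1 to 3. VO 1 and VO 2 lay below all Sham libraries and VO 3 between Sham 2 and Sham 3, and VO averaged 9.97 ± 3.58 FPKM and Sham 15.1 ± 1.57 FPKM. The log2 fold change was -0.60 ± 0.231 (adjusted p = 0.124). The activator Cdc20, the ubiquitin-conjugating enzyme Ube2c and Cdca3 had log2 fold changes of 0.31 to 0.88, and Ube2c shares 22.8% of its exonic bases with the troponin gene Tnnc2 on the other strand.

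Midzone and cytokinesis genes had higher VO values in 6 of 6, with a log2 fold change of 0.04 in Kif20a. Ect2 (ENSMUSG00000027699, chromosome 3, 27097222 to 27153878), the exchange factor that activates RhoA at the cleavage furrow, had 2.27, 0.600 and 3.71 FPKM in CsA 1 to 3, 3.77, 5.18 and 2.40 FPKM in VO 1 to 3 and 1.27, 1.94 and 0.759 FPKM in Sham 1 to 3. Its groups did not overlap, at a log2 fold change of 1.03 ± 0.380 (adjusted p = 0.112 by limma). Anln (ENSMUSG00000036777, chromosome 9, 22332012 to 22389188), anillin, the scaffold of the contractile ring, had 3.97, 1.31 and 5.45 FPKM in CsA 1 to 3, 5.84, 6.44 and 2.36 FPKM in VO 1 to 3 and 1.54, 3.36 and 1.13 FPKM in Sham 1 to 3. VO 3 lay among the Sham libraries, and the log2 fold change was 0.95 ± 0.436 (adjusted p = 0.18). Racgap1, the Ect2 partner of centralspindlin, was apart between groups (log2 1.03), while Prc1, Kif23 and Kif20a overlapped.

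**Figure D5:**
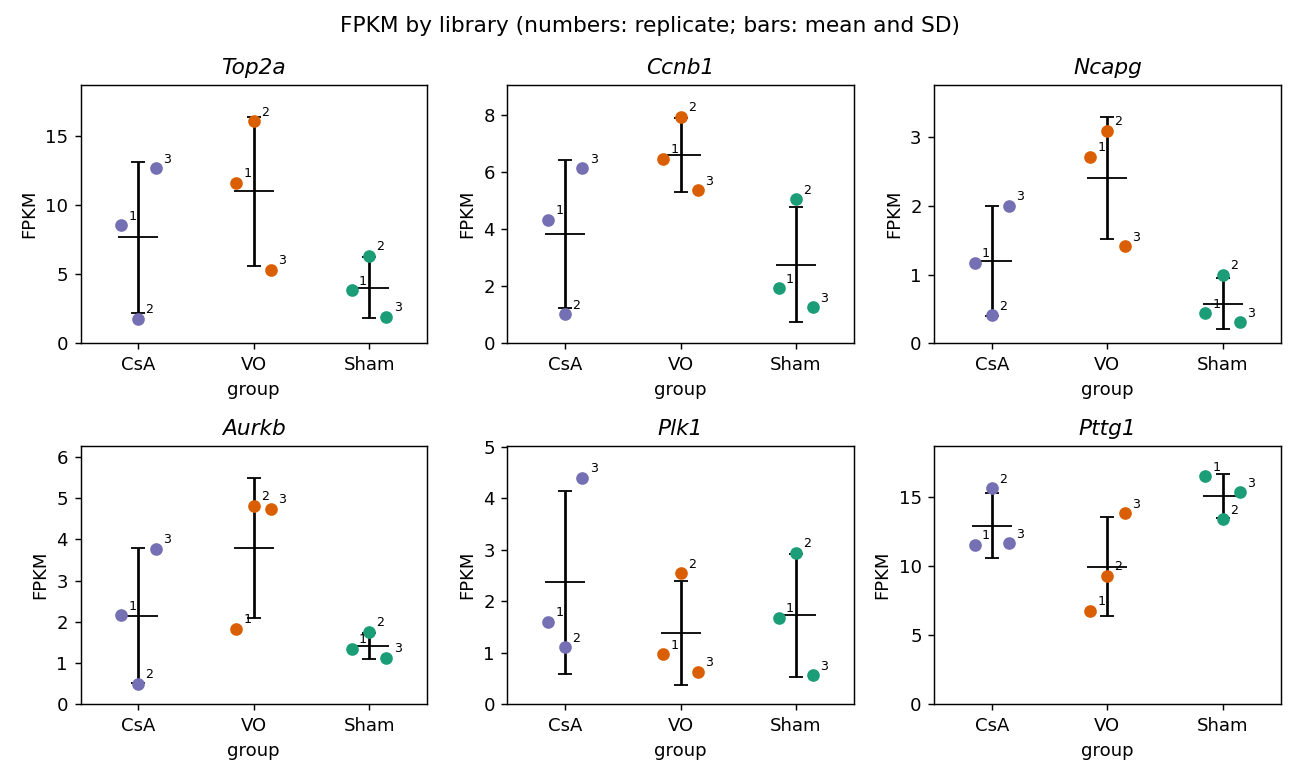
FPKM of 6 genes by library, with the replicate number beside each point and bars for the group mean and SD (n = 3 each). Ccnb1, Ncapg and Aurkb have every VO library above every Sham library, Top2a and Plk1 overlap, and Pttg1 is lowest in VO 1 and VO 2.

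VO 3 lay outside the range of VO 1 and VO 2 in 43 members (75.4%), against 82.7% of all tested genes. It lay below both in 36 members, between them in 14 and above both in 7 (Cdc25b, Bub3, Birc5, Cdc20, Ube2c, Pttg1 and Cenpa). Of all tested genes it was below both in 40.8% and above both in 41.9%. The 36 had a median gene length of 5408.5 bases and a median transcript GC content of 43.3%, the 14 had 3939.5 bases and 50.6%, and the 7 had 3402 bases and 48.7%. The level in VO 3 over the mean of VO 1 and VO 2 had a median of 0.625 in the members, from 0.231 for Smc2 to 1.72 for Pttg1, and of 1.02 in all tested genes. Across the 57 members, which are not independent replicates, that ratio had a Spearman correlation of -0.45 with length and 0.48 with GC content, and across all tested genes of -0.50 and 0.29. The part of the low mitochondrial share of VO 3, or of its lower number of genes above 0, in these values was not tested.

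The comparison of CsA with VO asks what cyclosporin A changes after the same operation. Values were lower in CsA for 54 of 57 members, the exceptions being Plk1, Pttg1 and Kif20a, and no member passed the test. In limma 0 members and 0 of 13477 genes had an adjusted p of 0.05 or less (0.0%), and voom on recovered fragments also called 0. At an unadjusted p under 0.05 there were 0 members, against 8.64% of all tested genes higher and 7.82% lower. Over all tested genes 50.2% were below 0 and 49.8% above 0. The members' median log2 fold change was -0.37, against -0.001 for all tested genes, and their median ratio of FPKM means was 0.767, from 0.497 for Ncapg to 1.71 for Plk1.

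No member had its CsA libraries all above or all below the VO libraries, against 10.9% and 10.3% of all tested genes. CsA 2 lay below all VO libraries in 54 members (27.2% of all tested genes), the exceptions being Plk1, Cenpf and Pttg1. CsA 1 did so in 20 (19.1%), and CsA 3 lay above all VO libraries in 20 (23.0%). CsA libraries therefore lay on either side of the VO range. Without CsA 2 the median log2 fold change was 0.02, without CsA 3 it was -0.69 and without VO 2 -0.24. Without CsA 3, 20 members lay fully below VO (35.1%, against 14.0% of all tested genes), and without VO 3 13 did (22.8%, near the 19.9% of all tested genes).

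Among the 11 genes followed in every comparison, cyclin B1 and aurora B had the largest differences. Ccnb1 averaged 3.83 ± 2.60 FPKM in CsA and 6.60 ± 1.29 FPKM in VO, a log2 fold change of -0.82 ± 0.470 (adjusted p = 0.399 by limma). CsA 3 lay among the VO libraries, CsA 1 below them and CsA 2 far below. Aurkb averaged 2.14 ± 1.64 FPKM in CsA and 3.80 ± 1.70 FPKM in VO, a log2 fold change of -0.69 ± 0.408 (adjusted p = 0.413). Top2a (-0.63), Cdk1 (-0.51), Ccna2 (-0.51), Anln (-0.40), Foxm1 (-0.37), Bub3 (-0.32), Mki67 (-0.19) and Mybl2 (-0.04) were lower by their fitted values, and Plk1 (0.46) higher. Top2a, Cdk1, Ccna2, Anln, Foxm1, Mki67 and Mybl2 had values of 0.004 to 0.32 without CsA 2.

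The smallest p of this comparison belonged to Ncapg, at 1.20 ± 0.797 FPKM in CsA and 2.41 ± 0.883 FPKM in VO (adjusted p = 0.314 by limma). CsA 3 lay above VO 3 and below VO 1 and VO 2, and CsA 1 and CsA 2 lay below all 3. Kif15 averaged 0.675 ± 0.447 FPKM in CsA and 1.35 ± 0.444 FPKM in VO (SD, n = 3 each). Ect2 averaged 2.19 ± 1.55 FPKM in CsA and 3.79 ± 1.39 FPKM in VO, and Cdc25c 0.927 ± 0.615 FPKM in CsA and 1.64 ± 0.496 FPKM in VO. In each of these 3 the CsA range reached into the VO range through CsA 3. Pttg1 went the other way, at 13.0 ± 2.33 FPKM in CsA and 9.97 ± 3.58 FPKM in VO, with CsA 1 and CsA 3 near 11.6 FPKM and CsA 2 at 15.6 FPKM.

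Set against Sham, CsA had higher values in 56 of 57 members, all but Pttg1, where 50.3% of all tested genes had higher and 49.7% lower values. In limma 0 members and 0 genes passed (0.0%), voom called 0, and at an unadjusted p under 0.05 there were 0 members, against 0.594% of all tested genes higher and 0.89% lower. The members' median log2 fold change was 0.36, about the size of the median SE of 0.358. No member had its groups fully apart (4.8% of all tested genes above and 4.94% below). CsA 3 lay above all Sham libraries in 56 members (29.2% of all tested genes), CsA 1 in 27 (31.8%), and CsA 2 lay below all Sham libraries in 27 (22.2%). Without CsA 2, 27 members were fully above Sham (17.8% of all tested genes).

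Mki67 (0.71), Top2a (0.60), Cdk1 (0.57), Anln (0.55), Ccna2 (0.38), Ccnb1 (0.31), Plk1 (0.28), Aurkb (0.24), Foxm1 (0.18), Mybl2 (0.12) and Bub3 (0.01) had these log2 fold changes in CsA against Sham, each at a limma adjusted p of 1. Bub1 had the largest ratio of means, 2.49, and 4 members reached 2-fold, a count again without a share over all tested genes. The median was 0.01 without CsA 3, 0.14 without Sham 3, 0.59 without Sham 2 and 0.72 without CsA 2. With the 3 libraries high in Myl7 left out it was -0.36, and all 11 genes just named had values below 0; this leaves Sham 2 alone in its group, assumed to vary like the others. VO against Sham and CsA against VO share the VO libraries, and VO against Sham and CsA against Sham share the Sham libraries, so these values are not independent of each other.

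Other cell cycle lists were read in the same fit. Of 76 other mitosis genes tested (82 listed), 72 had a higher value in VO than in Sham, with a median log2 fold change of 0.47, and 4 rose (2.04% of all tested genes did). Cenph, a kinetochore subunit, had 2.49 ± 0.162 FPKM in VO and 0.489 ± 0.253 FPKM in Sham (log2 1.24 ± 0.210, limma, adjusted p = 0.0382). Mis18a, which is needed for the loading of Cenpa onto centromeres, rose by 0.94 on the log2 scale (limma, adjusted p = 0.0408). The kinetochore gene Cenpl rose by 0.78 and the cohesin protector Sgo2a by 0.74 (limma, adjusted p of 0.0476 and 0.0408). These calls do not hold in every setting: no gene was called higher with the replicate block, with no filter, with only the groups compared, after the GC correction, or without CsA 1, CsA 3, VO 1, Sham 1 or Sham 3. In CsA against VO the median was -0.25 with 0 called, and in CsA against Sham 0.23 with 0 called.

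DNA replication genes, which act earlier in the cycle, had higher VO values in 41 of 41 tested (45 listed), with a median of 0.58 against Sham. Rfc4, a subunit of the clamp loader, and Orc6, of the origin recognition complex, rose by 1.54 and 0.80 on the log2 scale (adjusted p of 0.0382 and 0.0456 by limma), calls that end in the same settings. Their summed level was 189.1, 122.6 and 260.9 FPKM in CsA 1 to 3, 213.4, 324.8 and 246.8 FPKM in VO 1 to 3 and 127.2, 189.2 and 120.8 FPKM in Sham 1 to 3. Its order within CsA and within Sham was that of the mitosis and spindle sum, and in VO it put VO 3 above VO 1 where the mitosis and spindle sum put it below. Of 22 DREAM, E2F and RB factors, which control these promoters, 0 passed in VO against Sham and 17 were above 0, with a median of 0.37. Nfyb, a subunit of NF-Y, at 0.74 ± 0.195 (adjusted p = 0.0551 by limma), and Lin54, the CHR-binding subunit of DREAM, at 0.56 ± 0.150 (adjusted p = 0.0566), had the smallest p.

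Markers of cell types that the tissue can hold were summed by library. Atrial markers (11 genes) ran from 32.2 to 184.2 FPKM in CsA, 28.4 to 45.8 FPKM in VO and 28.0 to 667.2 FPKM in Sham, and Tbx5 fell in VO against Sham. Endothelial markers (15 genes) ran from 498.4 to 601.6 FPKM in CsA, 355.9 to 475.9 FPKM in VO and 495.1 to 579.9 FPKM in Sham, and 2, Plvap and Tie1, fell in VO against Sham. Smooth muscle and pericyte markers (12 genes) ran from 1024 to 1047 FPKM in CsA, 724.9 to 955.8 FPKM in VO and 1047 to 1330 FPKM in Sham, and Myh11 fell. For both of these lists every VO library lay below every Sham library. In VO against Sham 4 of 15 endothelial genes had a value above 0, with a median log2 fold change of -0.40. Of the smooth muscle and pericyte genes 0 of 11 tested did, with a median of -0.53.

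Fibroblast markers (12 genes) ran from 978.6 to 1140 FPKM in CsA, 1142 to 1232 FPKM in VO and 912.4 to 1106 FPKM in Sham, with Lum higher and every VO library above every Sham library. Macrophage markers (14 genes) ran from 147.5 to 202.4 FPKM in CsA, 106.5 to 202.2 FPKM in VO and 163.8 to 205.7 FPKM in Sham. Only Fcgr1 of this list was called, higher in VO than in Sham, against the direction of most of the list. Of the 14 genes, 5 had a value above 0 in VO against Sham, and the median log2 fold change was -0.33. Erythroid markers (12 genes) reached 2044 FPKM in VO 3 and lay between 595.4 and 1044 FPKM in the other 8 libraries; Klf1 was at 0 in all VO libraries. Lymphocyte and neutrophil markers were scarce, at 2.25 to 26.0 FPKM, with Ly6g, Elane and Mpo at 0 in every library. Epicardial markers (8 genes) had 30.3 to 39.3 FPKM in CsA, 26.0 to 36.3 FPKM in VO and 25.2 to 37.5 FPKM in Sham. The calls named here end with no filter, with only the groups compared, after the GC correction, and without CsA 1, CsA 3, VO 1 or Sham 3, where 0 genes were called. None of these lists had a gene past the test in CsA against VO. The part of any of these cell types in the members' levels was not tested.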

How the data were processed

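The 9 libraries of right ventricular myocardium were prepared with NEBNext Ultra reagents from 1 µg of total RNA each, per the labels' protocols. The authors deposited 1 table of FPKM per gene and library, with gene lengths and coordinates. The submitters' processing notes name GATK 3.7, DESeq2 1.20.0, featureCounts 1.5.0-p3, StringTie 1.3.3b and HISAT2 2.0.5, and GRCm38 and mm10, without saying what each was used for. Strandedness of the counting is unknown here.

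FPKM times length gave whole fragments for 100.0% of low values (within 0.1 of a whole number, up to 1000 fragments), and from these the totals per library. The intervals describe counting error alone, as PCR duplicates are not marked. Values were taken as log2(FPKM + 1), which understates the change of low genes. The 13477 genes whose mean reached 0.5 FPKM, all 57 members among them, entered 1 limma 3.58.1 fit (R 4.3.3) over all 9 libraries, with a mean-variance trend and two-sided tests for 3 comparisons. P-values were adjusted over all genes tested by Benjamini-Hochberg, at 0.05. The steps were tested on simulated data. GC content and exonic overlaps came from the GENCODE annotation of GRCm38, promoter windows from RefSeq (GRCm38.p6). Python 3.11.15 and matplotlib 3.10.9 drew the figures.

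The members and gene lists were chosen with earlier results of these data known. Values in every library are given for Mki67, Top2a, Cdk1, Ccnb1, Ccna2, Aurkb, Plk1, Anln, Foxm1, Mybl2 and Bub3 (11 genes) and, in each role, for the genes with the smallest p in VO against Sham and in CsA against VO. Other members are given by ranges and counts, and those singled out beside them were chosen after their values were seen. From other lists up to 4 called genes, or the 2 with the smallest p, are named. The settings varied were the pseudocount (0.1 or 0.5), the filter (none, or 1 FPKM), median-of-ratios scaling, rescaling without mitochondrially encoded genes, a fit to only the groups compared, a replicate block, a GC correction (loess, span 0.3, degree 1), voom on the recovered fragments, each library left out, and the 3 libraries high in Myl7 left out.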

Additional observations from a re-analysis of the deposited data

How the results depend on the processing

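In VO against Sham the count over all genes, 642, was 0 with no filter, with only the groups compared or after the GC correction, 1 with the replicate block or with the GC correction and without VO 3, 3 without the libraries high in Myl7, 1010 with voom and 0 to 2032 with 1 library left out. Members called ranged from 0 to 4 with 1 library left out and were 0 in the other settings run, the replicate block included. Their median log2 fold change was 1.196 with voom, 1.06 with a pseudocount of 0.1, 0.20 without the libraries high in Myl7 and 0.46 to 0.93 with 1 library left out; members fully above Sham ranged from 18 to 49, in a setting chosen after seeing the data. Without the libraries high in Myl7, single values were -0.43 for Cdca3, -0.077 for Nuf2, -0.13 for Knstrn, -0.085 for Ncapd2, -0.015 for Kif2c, -0.14 for Kif4, -0.25 for Hmmr, -0.36 for Ckap2l, -0.40 for Kif20a and -0.037 for Mybl2. Kif20a was at -0.0021 after rescaling without mitochondrially encoded genes and -0.0011 after the GC correction, and Plk1 at 0.091 after it, or 0.40 with VO 3 left out too. With 1 library left out Plk1 ranged from -0.53 to 0.14, Cdca3 from -0.10 to 0.69, Kif20a from -0.19 to 0.26 and Mybl2 from -0.072 to 0.33. In CsA against VO, members called stayed at 0 in every setting; all genes called were 1 with the GC correction and without VO 3 and 0 to 1 with 1 library left out, members fully above VO 0 to 1, and the median -0.69 to 0.02, with -0.67 for voom. Plk1 was at -0.0097 with the GC correction and without VO 3. With 1 library left out Mki67 ranged from -0.60 to 0.32, Top2a from -1.10 to 0.042, Cdk1 from -0.92 to 0.0035, Ccna2 from -1.001 to 0.062, Anln from -0.76 to 0.030, Foxm1 from -0.73 to 0.030 and Mybl2 from -0.28 to 0.20. In CsA against Sham, members called stayed at 0; all genes called were 3 without the libraries high in Myl7 and 0 to 3 with 1 library left out, members fully above Sham 0 to 27, and the median -0.36 and 0.01 to 0.72 in those settings. Without the libraries high in Myl7, Mki67 was at -0.52, Top2a -0.51, Cdk1 -0.49, Ccnb1 -0.88, Ccna2 -0.91, Aurkb -0.34, Plk1 -0.75, Anln -0.36, Foxm1 -0.51, Mybl2 -0.32 and Bub3 -0.33. Bub3 was at -0.028 with the GC correction, with VO 3 in or out, and -0.0037 with voom. With 1 library left out Ccnb1 ranged from -0.066 to 0.85, Ccna2 from -0.11 to 0.96, Aurkb from -0.14 to 0.70, Plk1 from -0.12 to 0.59, Foxm1 from -0.18 to 0.58, Mybl2 from -0.13 to 0.36 and Bub3 from -0.17 to 0.10. The cause was not tested for any of these. Libraries with the same number were not shown to be pairs: their deviations correlated at -0.40 to 0.24 in 9 pairs, against -0.19 to 0.27 in 18 pairs with different numbers. Leaving out the libraries high in Myl7 leaves Sham 2 alone in its group, so its spread is taken from the other groups. The replicate block changed no member's call. Precision is limited by 3 libraries a group, with standard errors of 0.194 to 0.588 on the log2 scale, and by depth in 5 of 513 member values that rest on fewer than 10 fragments.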

Other observations

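The spacing of CCAAT boxes was looked at in the promoter windows with 2 or more of them. In the 25 windows of mitosis and spindle genes, neighbouring CCAAT letters began a median of 33.5 bases apart (46 spacings), and 9 windows held a spacing of 30 to 36 bases. Over the 1724 such windows of all tested genes the median was 46.0 bases and 349 windows (20.2%) held such a spacing. Ccnb2 had CCAAT letters beginning 87, 54 and 21 bases before the start. Windows of 1 gene that overlap share their letters, so they are not independent.

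For 16 members that share exonic bases with another gene, the exonic bases of the annotation equal the gene length of the deposited table. For 5 of these the share is over 10%, and those partners lie on the other strand. Beside Ncapg, Kif4 and Ube2c, given with their values, Ccna2 shares 12.5% with Exosc9 and Prc1 11.1% with Rccd1. For 2 more, Cdc25c and Kif20a, the annotation and the table differ in length, and no share is given.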
